A study of Mus musculus with 15 samples.

Results

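The T-cell leukemias of a mouse model with overexpression of Cbx7 were compared between mice with 1 number in their title (mice 2 and 5) and mice with 2 numbers (mice 2-2, 4-1, 4-2, 5-1 and 5-3). These 7 mice were all those labelled with T-cell leukemia among 12 mice with a type label, and they account for 8 of the 15 arrays in the series. The members were chosen from the labels alone. Mouse 5-1 was run on 2 arrays, which were averaged. All 7 mice share the Cbx7 overexpression, and the RNA came from unsorted spleen cells stored as frozen pellets, amplified as whole transcriptome and hybridised to Illumina bead arrays. What a second number in the title or the leading number (2, 4 or 5) stands for is left unsaid in the labels, so both serve only as labels here. The labels name no promoter, strain, age or vector, and no mouse without Cbx7 overexpression was analysed here.

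Cbx7 is a chromobox subunit of polycomb repressive complex 1, which binds histone H3 trimethylated by polycomb repressive complex 2 and keeps developmental genes and cell cycle inhibitors silent. T cells mature in the thymus through stages that first rearrange the antigen receptor genes with Rag1, Rag2 and the polymerase Dntt, pass through a stage with both co-receptors, and then keep either Cd4 or Cd8. Spleen is a site where mature T cells reside, and in mice it also makes red and myeloid blood cells, so that RNA of an unsorted leukemic spleen is a mixture.

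Values below are background-corrected, quantile-normalised signals on a log2 scale, where a difference of 1 is a doubling of signal. The lowest signal of a probe detected on an array was 4.82 to 5.06 on these arrays. Levels can be set side by side between mice for the same gene but not between genes, because probes differ in brightness. Mouse 5-1 counts as detecting a gene where both of its arrays did. The 8 arrays detected between 11278 and 12944 of 25697 probes at a detection p under 0.05. The mean number of probes detected per mouse was 12191 in one-number mice and 11997 ± 592 (SD, n = 5) in two-number mice, a difference of -194 (exact permutation test over mice, two-sided, p = 0.714; the smallest p that 21 assignments allow is 0.0476). The number of arrays, and 2 mice in one of the groups, limit the precision of every comparison below.

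T-cell genes were set beside the label of T-cell leukemia. The list held 28 genes of the T-cell receptor and its signalling, of which 23 were tested. Its mean signal was 6.87 to 8.71 in the 7 mice. The mean was 5.66 over 4 mice labelled with erythroid leukemia and 5.58 in 1 mouse labelled undifferentiated. The tested members and their probes were picked by detection and mean signal in the 7 mice, which favours higher levels there. This is therefore no test of the label. Among the erythroid arrays, that of mouse 2-3-2 detected only 7554 probes and the second of mouse 5-5 only 7382. Cd3e, the epsilon chain of the receptor complex, was detected in all 7 mice. Its levels were 10.09 in mouse 2, 10.05 in mouse 5, 8.04 in mouse 2-2, 9.34 in mouse 4-1, 10.20 in mouse 4-2, 10.64 in mouse 5-1 and 10.06 in mouse 5-3. Cd3e was lowest in mouse 2-2, and the groups overlapped. Cbx7 itself was near background, with levels from 4.58 to 5.08, and was detected in mice 5 and 4-2. Whether its probe reads the overexpressed transcript is not stated in the labels.

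A pair of mice stood apart from the rest in named genes, and both carry 2 numbers. In mouse 5-1 the early thymocyte genes Rag1 and Dntt were high. Rag1, a subunit of the recombinase, was detected in mouse 5-1 alone, at 9.93 against 4.54 to 4.68 in the other mice. Dntt, the polymerase that adds bases at receptor gene junctions, was at 10.10 in mouse 5-1 and at 4.39 to 4.64 elsewhere. Both arrays of mouse 5-1 gave these levels, at 10.09 and 9.78 for Rag1 and 10.15 and 10.05 for Dntt. Detection in mouse 5-1 alone also held for Ptcra, the surrogate alpha chain, but its level of 4.97 lay close to the 4.89 of mouse 2. Rag2 was counted as detected in 0 of the 7 mice, and its highest level was 4.76 in mouse 5-1, at 4.92 and 4.60 on its arrays. These genes were not tested, because detection in at least 2 mice was required.

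Among the tested thymocyte genes, mouse 5-1 was lowest for Cd4 and highest for Cd8b1, Arpp21, Cd27 and Themis. It was at neither end for Cd8a, Cd24a and Cd1d1. Cd24a was at 10.71 in mouse 5-1, below the 11.08 of mouse 2-2, and Cd1d1 at 4.96 against 4.64 to 5.26 in the others. Cd4, the co-receptor of helper T cells, was at 10.03 in mouse 2, 10.43 in mouse 5, 8.75 in mouse 2-2, 8.25 in mouse 4-1, 9.33 in mouse 4-2 and 9.73 in mouse 5-3, but at 4.85 in mouse 5-1, where 1 of the 2 arrays detected it (5.05 and 4.65). Every two-number mouse thus lay below both one-number mice for Cd4, and the difference of -2.05 ± 1.17 (SE) did not pass the test (limma, adjusted p = 0.749). Cd8b1, the beta chain of the other co-receptor, was highest in mouse 5-1 at 7.95 and was also detected in mice 2 and 4-2, at 6.02 and 6.27. Cd8a, the alpha chain, was detected in all mice between 6.42 and 8.45, with mouse 5-1 at 7.20. Notch1, a receptor that drives early T-cell development and belongs to the Notch list, was at 8.83 in mouse 5-1. It was between 5.13 and 6.69 in the others. Arpp21, an RNA-binding protein of thymocytes, was at 8.25 in mouse 5-1 and at most 5.12 elsewhere.

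**Figure D1:**
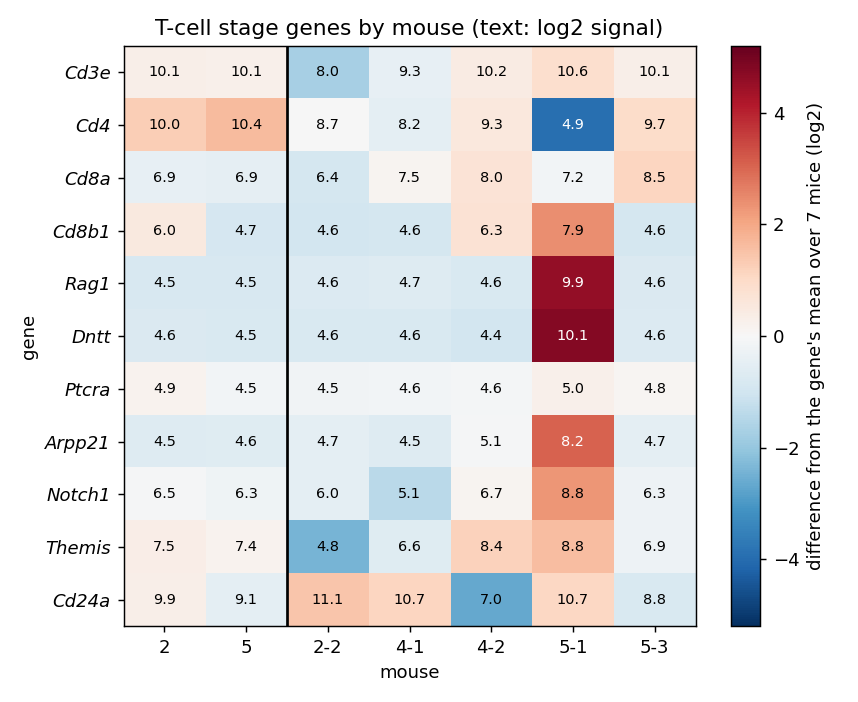
Levels of 11 T-cell stage genes (rows) in the 7 mice (columns), printed as log2 normalised signal, with colour for the difference from the gene's own mean over the mice. The one-number mice stand left of the black line. Mouse 5-1 is the column with Rag1 at 9.9 and Cd4 at 4.9.

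The other mouse that stood apart was 2-2. Its granulocyte list mean, over 13 tested genes of 20, was 9.26, against 7.39 in mouse 2, 5.66 in mouse 5 and 5.10 to 5.46 in the other two-number mice. S100a8 and S100a9, calcium-binding proteins of neutrophils, were at 10.69 and 12.35 in mouse 2-2. In mouse 2 they were at 8.91 and 11.14, and the remaining mice lay between 4.42 and 6.20 for S100a8 and between 5.61 and 9.23 for S100a9. The stefins Stfa1 and Stfa2, protease inhibitors of granulocytes with near-identical copies, were at 11.83 and 10.56 in mouse 2-2 and at most at 5.47 and 5.46 in the other 6 mice. Mouse 2-2 also had the lowest T-cell list mean, 6.87, and the highest erythroid list mean, 8.37. In an unsorted spleen, fewer cells of a type and less RNA per cell cannot be told apart.

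The one-number mice were more like each other than any other pair. Over the 10146 genes tested, mice 2 and 5 correlated at r = 0.964, the highest of the 21 pairs, and 440 genes differed by 1 or more between them. The next pair, mice 4-2 and 5-3, correlated at 0.928 and differed in 1204 genes. The 2 arrays of mouse 5-1, which are the same sample, correlated at 0.972. The median absolute difference per gene was 0.25 both between mice 2 and 5 and between the arrays of mouse 5-1. These correlations run across genes, which are not independent replicates, and are given as descriptions.

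Two-number mice were no closer to each other than to the one-number mice. The 10 pairs of two-number mice ranged from 0.811 to 0.928, with a median of 0.888, and the 10 pairs with 1 mouse of each kind ranged from 0.874 to 0.924, with a median of 0.903. The lowest pair was mice 2-2 and 5-3, in which 2945 genes differed by 1 or more. A shared leading number did not bring mice closer. The 5 pairs with the same leading number had a median of 0.902, and the 16 pairs with different numbers 0.900. Mouse 2-2 correlated with mouse 2 at 0.903. Mouse 5-3 correlated with mouse 5 at 0.918, and mouse 5-1 with mouse 5 at 0.875. The arrays are numbered in the labels, and those of mice 2, 5, 4-1, 2-2 and the first array of mouse 5-1 lie within numbers 1 to 8. Among the 10 pairs of these 5 arrays, mice 2 and 5 again had the highest correlation, 0.964, and the next was 0.915. The labels do not say whether array numbers mark a slide or a run.

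**Figure D2:**
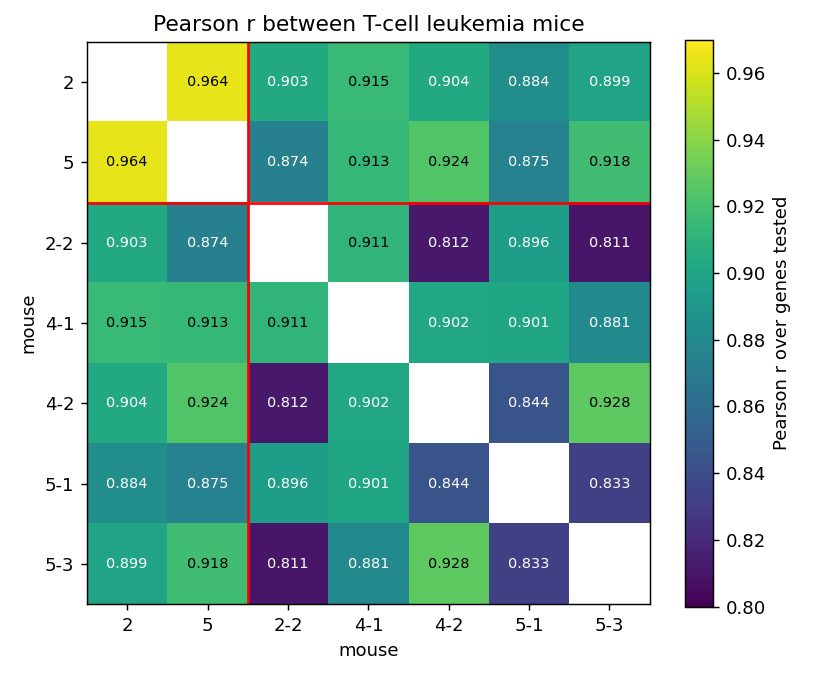
Pearson correlation of log2 signal over the 10146 genes tested, for each pair of the 7 mice (rows and columns). Red lines part the one-number from the two-number mice. Mice 2 and 5 share the highest value, 0.964, and mice 2-2 and 5-3 the lowest, 0.811.

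Between the groups, no gene passed the test. The two-number mice were set against the one-number mice gene by gene with limma, and 0 of 10146 genes (0%) had an adjusted p under 0.05, with a smallest adjusted p of 0.460. At an unadjusted p under 0.05 there were 667 genes (6.57%), 200 higher (1.97%) and 467 lower (4.60%) in two-number mice. All 5 two-number mice lay above both one-number mice for 690 genes (6.80%) and below both for 890 (8.77%). Scaling each array to a common median, in place of quantile normalization, gave 393 and 1046 such genes and moved the median difference over all genes from 0.02 to -0.17. Genes with an unadjusted p under 0.05 numbered 238 without mouse 2, 292 without mouse 5, 657 without mouse 5-1 and 856 without mouse 2-2. In each of these fits 0 genes passed the adjusted test. Without mouse 2-2 the two-number mice lay above both others for 1165 genes, against 690 with it. Mice that share a leading number may not be independent. The p-values ignore this and may then be too small or too large, because such mice occur both within and across the groups.

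The genes described next are the 12 in each direction with the largest difference among those with an unadjusted p under 0.05 and no overlap between the groups. None passed the adjusted test, so they are given by their values. Their smallest adjusted p was 0.460 on the lower side and 0.500 on the higher side. Being picked for size and for not overlapping, they say nothing about how many genes differ. Under the alternatives in which they were tested, 0 of the 24 passed the adjusted test, with a lowest adjusted p of 0.0908 for Dapl1.

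On the lower side, Cd83, an immunoglobulin-family protein induced on activated lymphocytes and dendritic cells, was at 7.15 in mouse 2 and 7.09 in mouse 5. It was at 5.27 in mouse 2-2, 4.43 in mouse 4-1, 5.31 in mouse 4-2, 4.95 in mouse 5-1 and 4.65 in mouse 5-3. The highest two-number mouse lay 1.79 below the lowest one-number mouse, the widest gap among the 12, and the difference was -2.20 ± 0.30 (SE; limma, adjusted p = 0.460). Bcl2a1d, an anti-apoptotic relative of Bcl2, was at 7.10 and 7.47 in mice 2 and 5 and between 4.54 and 5.47 in the two-number mice. The difference was -2.18 ± 0.30 (SE; limma, adjusted p = 0.460). Near-identical copies of this gene exist, so the signal cannot be assigned to 1 copy.

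Il4, the cytokine of helper T cells of type 2, mast cells and basophils, was at 7.53 in mouse 2 and 9.16 in mouse 5. In the two-number mice it was at 5.55 in mouse 2-2, 7.05 in mouse 4-1, 6.83 in mouse 4-2, 4.50 in mouse 5-1 and 7.03 in mouse 5-3. The groups came within 0.48 of each other, and mouse 5-1, which was also lowest for Cd4, was lowest. Ms4a4b and Ms4a6b, membrane proteins of the Ms4a family expressed by T cells, were also lower. Ms4a4b was at 9.34 and 8.77 in mice 2 and 5 and between 5.68 and 8.08 in two-number mice. Ms4a6b was at 9.44 and 9.20 in mice 2 and 5 and between 5.35 and 8.79 in two-number mice. For both, mouse 4-2 came nearest to the one-number mice.

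Dapl1, a protein related to the death-associated protein Dap, was at 8.20 in mouse 2 and 6.50 in mouse 5. In two-number mice it lay between 4.52 and 4.78 and was not detected on any of their 6 arrays. Set against the lowest detected signal of those arrays, or the probe's own signal where higher, it was at least 5.30-fold higher in one-number mice (limma, adjusted p = 0.500). Ifi27, an interferon-induced protein of mitochondria, was at 8.30 and 8.04 in mice 2 and 5 and between 4.59 and 6.83 in two-number mice. Cfap20dc was at 8.45 and 7.71 against 4.44 to 6.64, and Gm4956 at 9.01 and 8.76 against 5.00 to 7.13. Edn3, the secreted peptide endothelin 3, and Moxd1, a monooxygenase, differed by -2.19 ± 0.52 and -2.16 ± 0.70 (SE). S100a4, a calcium-binding protein of motile cells, was at 7.97 in mouse 2, 6.53 in mouse 5 and 6.48 in mouse 2-2, so that its groups were only 0.06 apart.

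On the higher side, the tightest gene was Nt5c2, a cytosolic nucleotidase that degrades purine nucleotides. It was at 5.43 in mouse 2 and 5.16 in mouse 5, and at 6.52 in mouse 2-2, 6.81 in mouse 4-1, 6.91 in mouse 4-2, 6.58 in mouse 5-1 and 6.77 in mouse 5-3. The difference was 1.43 ± 0.22 (SE; limma, adjusted p = 0.500). The other 2 probes of Nt5c2 past the filter differed by 0.29 and 0.58 in the same direction, with overlapping groups for both. Odf2, a protein of centriole appendages, was at 6.78 and 6.63 in mice 2 and 5 and between 7.82 and 9.04 in two-number mice. Pole, the catalytic subunit of DNA polymerase epsilon, was at 5.02 and 5.48 against 6.23 to 7.03. Arid2, a subunit of a chromatin remodelling complex, was at 7.06 and 7.47 against 8.25 to 9.39. Its second probe differed by 0.56 with no overlap.

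Atf5, a transcription factor of stress responses, had both one-number mice at 8.07 to 8.08. It reached 10.51 in mouse 2-2 and 10.36 in mouse 4-2, while mouse 5-3 at 8.24 was hardly above the one-number mice. Dpp4, a cell surface peptidase also known as CD26, was at 5.44 and 4.73 in mice 2 and 5. In two-number mice it ran from 5.70 in mouse 5-3 to 8.99 in mouse 5-1. Cdkn1c, a cyclin-dependent kinase inhibitor, was at 4.83 and 5.34 against 5.80 to 7.64. Mmp14, a membrane-bound matrix protease, was not detected in either one-number mouse and was at least 2.76-fold higher in two-number mice (limma, adjusted p = 0.717). Anxa9, a member of the annexin family, was likewise not detected in one-number mice and was at least 2.47-fold higher (limma, adjusted p = 0.665). Baalc, a gene first described in acute leukemia, was at 5.26 and 4.98 against 5.87 to 8.14, with mouse 5-3 highest. Zswim9 and Tango2 differed by 1.62 ± 0.34 and 1.54 ± 0.41 (SE).

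**Figure D3:**
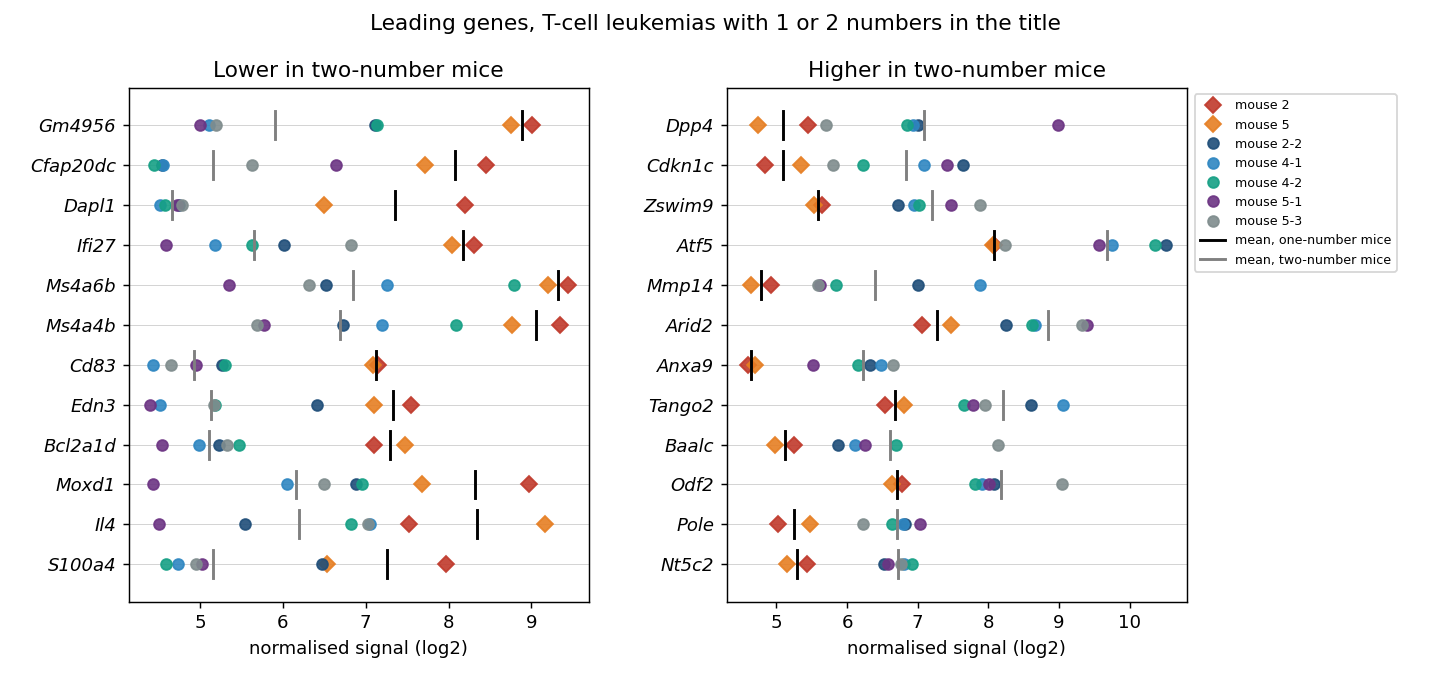
Log2 normalised signal (horizontal axis) of the 12 leading genes in each direction (rows), with 1 point per mouse. Diamonds are the one-number mice 2 and 5, circles the two-number mice, and vertical bars the group means. Groups do not overlap because the genes were picked for that, and for S100a4 they are only 0.06 apart.

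The difference could be taken separately within 2 leading numbers, as mouse 2-2 minus mouse 2 and as the mean of mice 5-1 and 5-3 minus mouse 5. These differences share no mouse, but their baselines, mice 2 and 5, correlated at r = 0.964. What mice 2 and 5 have in common enters both differences and favours the same direction in both. The counts and the correlation below are therefore descriptions only. Between mice 2 and 2-2, 872 genes were at least 1 lower and 853 at least 1 higher in mouse 2-2. In number 5, 139 genes were at least 1 lower and 98 at least 1 higher in both two-number mice. Lower by 1 or more within both numbers were 52 genes (0.513%), and higher were 21 (0.207%). Opposite directions were found for 3 and 8 genes. Across all genes the differences correlated at r = 0.33 (Spearman rho 0.29), given as a description. For 36 of the 52 and 11 of the 21, mice 4-1 and 4-2 also lay on the same side of mice 2 and 5. These genes were picked through the values of mice 2 and 5, which favours that outcome. Its share over all genes was not counted, so the counts are a description only.

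The leading genes were picked for groups that do not overlap, which fixes their direction within both numbers. Of them, 12 on the lower and 4 on the higher side differed by 1 or more within both numbers. Within number 5 this was required of each of mice 5-1 and 5-3 against mouse 5. Only the sizes are given, and those for number 5 use the mean of mice 5-1 and 5-3. Cd83 was 1.88 lower in mouse 2-2 than in mouse 2, and 2.29 lower in the number 5 mice. For Ms4a6b these values were 2.92 and 3.37. Also among the 52 were Tnfrsf9, Tnfrsf18 and Crem, which were picked after their values were seen and stand for no group. Tnfrsf9, the costimulatory receptor also known as 4-1BB, was at 6.96 and 6.80 in mice 2 and 5, and at 4.83 in mouse 2-2, 5.00 in mouse 4-1, 6.34 in mouse 4-2, 4.54 in mouse 5-1 and 5.26 in mouse 5-3. Tnfrsf18, the receptor GITR, was at 6.47 and 6.87 against 4.78 to 5.66. Crem, a transcription factor of cyclic AMP signalling, was at 6.25 and 7.12 against 4.67 to 5.33. The test of whether the difference itself differed between numbers 5 and 2 called 0 genes (0%; limma), with 136 genes at an unadjusted p under 0.05 (1.34%). The smallest p-values in it went to Stfa1, Stfa2 and Cstdc4, which were high in mouse 2-2.

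**Figure D4:**
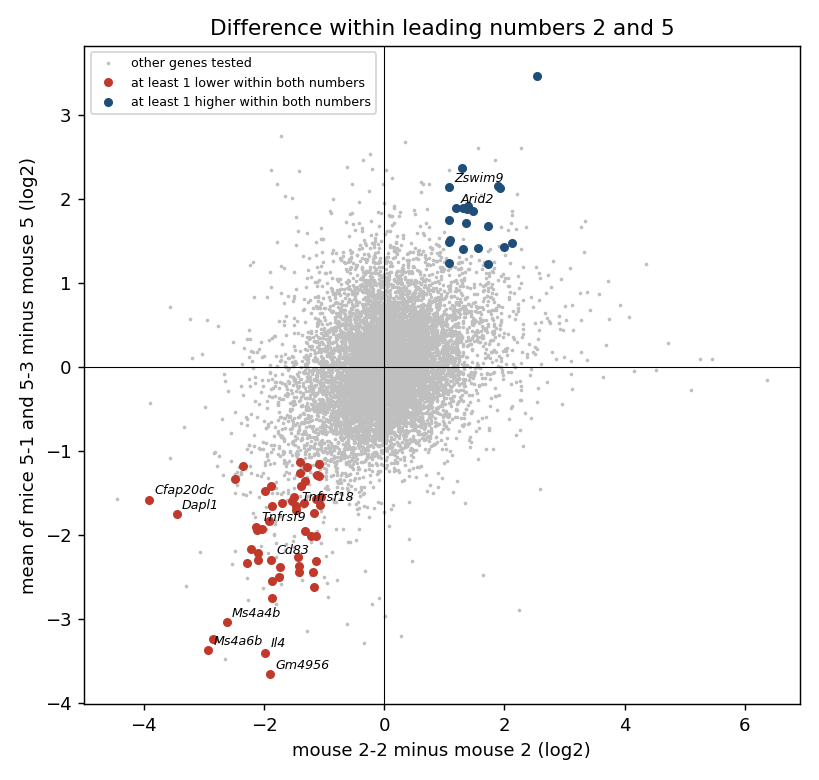
Difference in log2 signal within leading number 2 (mouse 2-2 minus mouse 2, horizontal axis) and number 5 (mean of mice 5-1 and 5-3 minus mouse 5, vertical axis), with 1 point per gene. Red points are the 52 genes at least 1 lower, and blue points the 21 genes at least 1 higher, in mouse 2-2 than in mouse 2 and in each of mice 5-1 and 5-3 than in mouse 5.

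Gene lists are described by counts and medians, beside a median difference of 0.02 over all genes tested. No member of any of the 31 lists passed the adjusted test. Among T-cell genes, 22 of 23 tested members of the receptor and signalling list had a negative difference. The list's median was -0.67, and in 3 members all two-number mice lay below both one-number mice, beside 8.77% of all genes. Cd247, the zeta chain of the receptor, was at 7.26 and 7.65 in mice 2 and 5 and between 5.19 and 7.21 in two-number mice, though a second probe differed by 0.17 in the other direction. Without mouse 2-2, which had the lowest T-cell list mean, the median was -0.40. All 7 Gimap genes, small GTPases that support survival of mature lymphocytes, were lower by their means, with a median of -0.77. Gimap1 was at 9.30 and 9.56 in mice 2 and 5 and between 7.93 and 9.27 in two-number mice. Without mouse 2-2 the Gimap median was -0.46. Ccr7, the chemokine receptor that guides T cells into lymphoid tissue, was at 7.48 and 7.78 against 5.16 to 7.35.

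The T-cell list varied among the two-number mice. Mice 4-2 and 5-3 had T-cell list means of 8.52 and 8.69, beside 8.46 and 8.71 in mice 2 and 5. Mice 2-2, 4-1 and 5-1 lay at 6.87, 7.78 and 7.70. These latter mice also had the higher erythroid list means among two-number mice, at 8.37, 7.22 and 8.07, against 5.34 and 5.90 in mice 4-2 and 5-3. The part of other cells in the T-cell list was not tested. With the erythroid list mean as a covariate, added after the data were seen, the T-cell median was -0.53.

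Genes of cell division ran the other way. Of 23 tested mitosis genes, 22 had a positive difference, with a median of 0.54, and in 6 all two-number mice lay above both others, beside 6.80% of all genes. Cdca8, a subunit of the chromosomal passenger complex, was at 6.26 and 6.25 in mice 2 and 5 and between 7.26 and 8.21 in two-number mice. Cenpe, a kinetochore motor, was at 6.39 and 6.15 against 7.05 to 7.87, and Top2a, a topoisomerase of dividing cells, at 7.74 and 7.57 against 8.01 to 8.91. Of 28 DNA replication genes, 26 had a positive difference, with a median of 0.28. The replication list mean was nevertheless 7.45 in mouse 5-3 and 7.65 in mouse 4-2, beside 7.74 and 7.57 in mice 2 and 5. Mcm3, part of the replicative helicase, was at 6.70 and 6.94 against 7.44 to 8.51. Under median scaling these medians were 0.27 for mitosis and 0.02 for replication, where the median over all genes was -0.17. Without mouse 5-1 the replication median was 0.10. The highest means of both lists were in mice 5-1 and 2-2, which also had the highest erythroid list means. With the erythroid list mean as a covariate, added after the data were seen, the medians were 0.50 and 0.16. The part of other cells in the mitosis and replication lists was not tested.

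Stress response and cholesterol genes were also higher by their means. The integrated stress response list, led by the transcription factor Atf4, had a median of 0.83 over 10 tested genes, 9 of them positive. The median was 1.98 between mice 2-2 and 2, but only 0.13 within leading number 5. Mice 2 and 5 both had a list mean of 7.00, mouse 5-3 lay beside them at 7.03, and mouse 2-2 was highest at 8.85. Sesn2, a stress-induced regulator of nutrient signalling, was at 5.60 and 5.44 against 5.83 to 7.42. All 11 tested cholesterol synthesis genes had a positive difference, with a median of 0.37. The list mean was nevertheless lowest in mouse 4-2, at 6.04, beside 6.28 and 6.21 in mice 2 and 5. It was 6.35 in mouse 5-3 and between 6.89 and 7.03 in mice 2-2, 4-1 and 5-1. Only in 1 member, Insig1, did all two-number mice lie above both others, beside 6.80% of all genes. Insig1, the sterol sensor of the endoplasmic reticulum, was at 8.68 and 8.67 in mice 2 and 5 and between 8.80 and 10.09 in two-number mice.

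Genes of interferon signalling and antigen presentation were lower by their means. In the interferon list 14 of 16 tested genes had a negative difference, with a median of -0.55, and in 4 all two-number mice lay below both others, beside 8.77% of all genes. The median was -0.17 between mice 2-2 and 2, and -0.42 within leading number 5. Gbp2, an interferon-induced guanylate-binding protein, was at 6.09 and 6.38 in mice 2 and 5 and between 4.96 and 5.68 in two-number mice. In the MHC class I and immunoproteasome list 9 of 11 tested genes had a negative difference, with a median of -0.37, and in 2 all two-number mice lay below both others. Its mean in mouse 5-3, 9.67, exceeded the 9.33 of both one-number mice. Psmb8, a catalytic subunit of the immunoproteasome, was at 9.50 and 9.58 against 7.93 to 8.69, with a difference of -1.09 ± 0.27 (SE; limma, adjusted p = 0.681). The MHC class II list had a median of -0.98 with 8 of 9 tested genes negative. H2-Aa, an MHC class II alpha chain, was at 10.32 and 10.08, and mouse 5-3 at 10.36 exceeded both.

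Polycomb and cell cycle inhibitor lists, which bear on the function of Cbx7, had medians near that of all genes. The median was -0.17 over 18 genes of polycomb complex 1, 0.09 over 9 genes of polycomb complex 2 and -0.01 over 16 cell cycle inhibitors and p53 targets. Kdm2b, which recruits a variant complex to unmethylated DNA, was at 8.44 and 8.69 in mice 2 and 5 and between 7.78 and 8.11 in two-number mice, but its second probe differed by only -0.10 with overlapping groups. Pcgf1, the ring finger partner of that complex, was at 6.02 and 5.93 against 6.32 to 7.44. Cdkn1b, the inhibitor p27, was at 8.80 and 8.73 against 7.91 to 8.33, and its 2 other probes gave the same direction without overlap. The polycomb complex 2 median was -0.17 under median scaling, beside the same value for all genes there. Notch pathway genes had a median of -0.12 over 11 genes. In that list Lfng, a glycosyltransferase that modifies Notch receptors, was at 6.12 and 5.52 against 4.45 to 5.10.

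Markers of other spleen cells varied widely among the two-number mice. The erythroid and heme list, with 34 of 35 genes tested, had means of 7.12 and 6.29 in mice 2 and 5 and from 5.34 to 8.37 in two-number mice. In 0 of its members did the groups not overlap, beside 6.80% of all genes higher and 8.77% lower in all two-number mice. The 3 tested globin probes, whose gene copies are near-identical, had a mean of 12.03 and 11.26 in mice 2 and 5, 12.76 in mouse 2-2, 11.87 in mouse 4-1, 7.05 in mouse 4-2, 12.56 in mouse 5-1 and 10.04 in mouse 5-3. Mouse 4-2 was lowest by far. The B-cell list mean was 6.64 and 6.83 in mice 2 and 5 and between 5.66 and 7.34 in two-number mice.

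Mast cell and basophil genes had a median of -1.39 over 8 genes, but this rested on mouse 2. Mcpt8, a basophil protease, was at 10.42 in mouse 2 and 9.80 in mouse 2-2, and at most 5.59 in the other mice. Prss34, a further basophil protease, was at 8.12 in mouse 2 and 7.00 in mouse 2-2, and at most 4.64 elsewhere. Without mouse 2 the list median was 0.12. The cytotoxic and NK list behaved alike, with a median of -0.85 over 7 genes and of 0.04 without mouse 2. Il2rb, a chain of the receptors for interleukins 2 and 15, was nevertheless at 7.59 and 7.78 in mice 2 and 5 and between 5.47 and 6.87 in two-number mice.

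**Figure D5:**
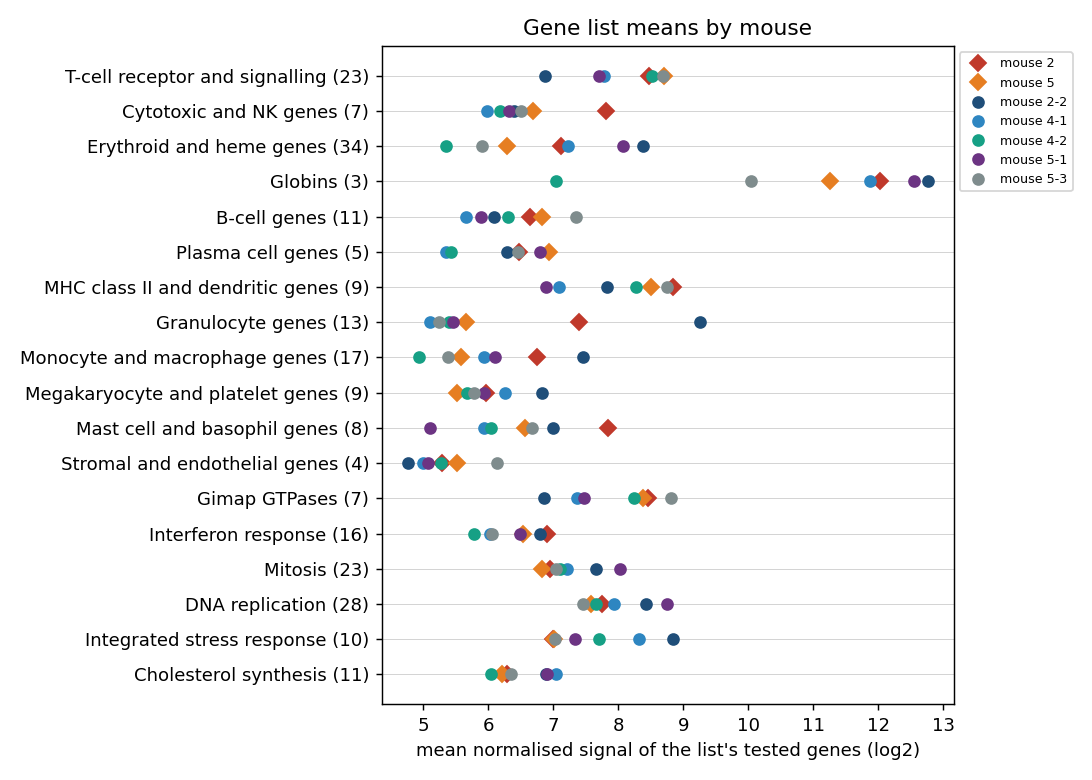
Mean log2 signal (horizontal axis) of 18 gene lists (rows, with the number of genes tested) in the 7 mice. Diamonds are the one-number mice and circles the two-number mice. The granulocyte list sets mouse 2-2 apart at 9.26, and the globins set mouse 4-2 apart at 7.05.

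The genes that varied most over the 7 mice did not follow the count of numbers. The median SD over the mice was 0.42, and 729 genes had an SD of 1 or more. Akr1c18, a steroid dehydrogenase that inactivates progesterone, had the largest SD. It was at 9.27 in mouse 4-1 and 10.61 in mouse 4-2, the mice with leading number 4, and between 4.37 and 4.46 in the other 5. Lrp12, a low-density lipoprotein receptor relative, was at 9.40 in mouse 2-2, 10.17 in mouse 4-1 and 10.69 in mouse 5-1, and between 5.24 and 7.12 in mice 2, 5, 4-2 and 5-3. A second probe of Lrp12 differed by -0.02 between the groups. Its means of 4.77 in one-number and 4.75 in two-number mice lay near background, so it says little about the spread of the first probe. Bex4 and the collagen Col5a1 were high in the same 3 mice, with Bex4 at 8.53 to 10.91 there and at most 6.82 elsewhere. The erythroid band 3 gene Slc4a1 was at 12.28 in mouse 2-2 and 11.98 in mouse 5-1, and lowest in mouse 4-2 at 5.29.

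Xist and the Y-linked Ddx3y were both detected in every mouse. Xist, the RNA that coats the inactive X chromosome of female cells, was between 9.63 and 12.10, and Ddx3y, a Y-linked helicase of male cells, between 11.21 and 12.32. Of the other Y-linked genes on the list, Eif2s3y and Kdm5d were detected in 0 of the 7 mice, and Uty in 2 of them, at levels from 4.54 to 5.66. The groups overlapped for Xist, Ddx3y and Uty, and the labels give no sex for the mice or for the cells.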

How the data were processed

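For 25697 probes on each array, the deposited file gives the average bead intensity without normalization between arrays, the detection p-value, the bead standard error and the count of beads, per the file headers. They also deposited a processed table on a log2 scale, made with limma and R 3.0.2 per the submitters' processing notes. Its normalization is not stated, its column medians were 4.81 to 4.83, and its lowest correlation with the values below was 0.99998.

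Here intensities were corrected with the normexp step of neqc (limma 3.58.1, R 4.3.3), with negative controls inferred from detection p-values and an offset of 16, then quantile normalised over all 15 arrays and put on log2. The arrays of mouse 5-1 were averaged. Probes detected (p under 0.05) in at least 2 of the 7 mice were kept, 13906 in all, and the probe with the highest mean stood for each of 10146 genes. Of these genes, 2574 had several probes. Symbols were updated through the RefSeq table of GRCm38.p6: 20733 were current, 3677 were renamed, and 226 ambiguous and 1061 unmatched ones stayed as in the file. Models were fitted with lmFit and eBayes to the 7 mice with the group as the only term, two-sided, with Benjamini-Hochberg adjustment over all genes and a threshold of 0.05. The script was tested on simulated data.

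Named genes were the 12 largest differences per direction, filled from unadjusted p under 0.05 without overlap because none passed, up to 3 members per list with the smallest p, the 10 largest SDs, the leading genes of the fits by leading number, and Cbx7, Cd4, Cd8a, Cd8b1, Rag1, Notch1, Cd3e and Kit. Kit was not analysed here. The members and lists were chosen with earlier results of these data known. Probe positions are not given, so no coordinates are printed. Mice of a group are the replicates, and the labels do not say whether they are independent animals of separate origin.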

Additional observations from a re-analysis of the deposited data

Results flagged for a closer look

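Within the 5 two-number mice, 48 named genes, 31 list means and the number of detected probes were each examined for a mouse far from the others, and 11 of the 80 showed one. A gap of more than 0.71 of the whole range drew attention, which chance gives in about 1 in 20 groups of values not picked for their spread. That rate does not apply to Stfa1, Stfa2, Cstdc4, Mcpt8, S100a8 and Taf15, which were named for a large spread or a large difference between leading numbers. Of the 11, 8 concern mouse 2-2. It stood high for Stfa1 at 11.8, against at most 4.83 in the other two-number mice, for Stfa2 at 10.6 and for Cstdc4 at 10.7, all of the stefin family. It also stood high for S100a8 at 10.7, for the granulocyte list mean at 9.26, for the basophil protease Mcpt8 at 9.80 and for S100a4 at 6.48. Mouse 2-2 was furthermore the low one for Taf15, an RNA-binding protein, at 4.61 against 7.18 to 7.71. Mouse 5-3 stood high for Odf2 at 9.04 and for the mean of the MHC class I and immunoproteasome list at 9.67. Mouse 4-2 stood high for the glycolysis and hypoxia list mean at 8.45, against at most 7.77 in the others.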

How the results depend on the processing

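No gene passed the adjusted test under any of the 23 alternatives. Genes with an unadjusted p under 0.05, 667 in the report (6.57%), numbered 1340 (7.40%) with no filter on dim probes. They numbered 357 (3.52%) with all 12 labelled mice in the fit and 1448 (14.3%) on array numbers 1 to 8 alone. With the erythroid list mean as a covariate, an alternative chosen after seeing the data, they numbered 1242 (12.2%). Leaving out 1 mouse gave 238 (without mouse 2) to 915 (without mouse 5-3), and 292 without mouse 5. Genes with all two-number mice higher or lower, 690 and 890 in the report, numbered 393 and 1046 under median scaling, 1397 and 1355 with no filter, 433 and 639 for genes detected in all 7 mice, 1087 and 1447 without leading number 4, 1677 and 1786 on array numbers 1 to 8, and 796 to 1589 and 1031 to 1720 with 1 mouse left out. With fewer mice the groups separate more often by construction, and the filters change the number of genes tested. That number was 10146 in the report, 18115 with no filter and 6404 for genes detected in all 7 mice. For the other changes the cause was not tested.

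With the leading number as a replicate block, 0 genes passed (smallest adjusted p 0.847), 555 had an unadjusted p under 0.05 (5.47%), and the median was -0.50 for the cytotoxic list, -0.29 for the mast cell list, -0.20 for the interferon list and 0.52 for DNA replication. Only 2 numbers hold both groups. The deviations from the group means correlated at 0.298 for mice 2 and 2-2, -0.098 for mice 5 and 5-1 and 0.206 for mice 5 and 5-3. For mice 5 and 4-2, of different numbers, the value was 0.232. With 2 one-number mice, the values of mouse 2 are those of mouse 5 with the sign reversed. These values therefore cannot decide whether the number pairs the mice, and the main fit did not use it.

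List medians moved as follows. Under median scaling they were -0.61 for mature T-cell and homing genes, -0.037 for stem and progenitor genes, -0.17 for polycomb complex 2 and -0.24 for cell cycle inhibitors. Stem and progenitor genes were at 0.23 under cyclic loess. The cytotoxic list was at -0.50 with an offset of 50, -0.56 with no filter and -0.55 for genes detected in all 7 mice. That last filter gave -1.21 for B-cell genes, -0.86 for stromal genes and -0.25 for cell cycle inhibitors. On array numbers 1 to 8, mature T-cell and homing genes were at -0.60. With 1 mouse left out, medians ran from -1.35 to 0.040 for cytotoxic genes, -1.59 to 0.12 for mast cell genes, -0.17 to 0.092 for Notch genes and 0.011 to 0.35 for stem and progenitor genes. Detection at p under 0.01 gave a difference of -933 probes (exact permutation p = 0.238).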
